A study of Mus musculus with 8 samples.

Results

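Transcript levels of 9 genes of the mitochondrial death pathway were compared across 4 conditions of mouse embryonic stem cells. The genes were taken by symbol from a table of 49641 gene entries, and each symbol matched 1 entry. They are the prosurvival genes Bcl2, Bcl2l1 and Mcl1, the BH3-only genes Bcl2l11, Bid and Bmf, the pore-forming effector Bak1, and the initiator caspases Casp2 and Casp9. Of these, 8 passed the filter on low values and were tested, and Bcl2 did not. In mm10 coordinates of the deposited entries, Bcl2 lies at chr1:106538178-106714274, Bcl2l1 at chr2:152780668-152831728, Bcl2l11 at chr2:128126038-128162547, Bmf at chr2:118528757-118549687 and Mcl1 at chr3:95658788-95663176. Casp9 lies at chr4:141793612-141815976, Casp2 at chr6:42264985-42282508, Bid at chr6:120891930-120916853 and Bak1 at chr17:27019810-27029009.

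The cells carry the V6.5 label, an embryonic stem cell line of mixed 129/C57BL/6 background, and 2 libraries were sequenced for each condition. The conditions were wild-type cells (WT), Dgcr8 knockout cells (Dgcr8 KO), knockout cells that received a mimic of miR-294, and knockout cells that received siRNAs directed at Mbnl1 and Mbnl2 (siMbnl1/2). Mimic and siRNAs were used at 50 nM and added 16 hours after plating. WT and Dgcr8 KO columns are named as mock transfections, and the treated cells share the Dgcr8 deletion with their controls. The medium held serum and LIF; the surface was either gelatin or a layer of irradiated mouse embryonic fibroblasts, and no label ties a surface to a sample. The column names give V65 for WT and ES1 for Dgcr8 KO, so it is unknown whether both came from 1 parental line, and a difference from WT can include one between lines. Nothing says that the 2 libraries of a condition came from separate cultures. The p-values thus rest on a spread between libraries, pooled over the 4 conditions, that may be technical.

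In this pathway, prosurvival proteins bind and hold the effectors Bak and Bax, and BH3-only proteins release or directly activate them. Active effectors permeabilise the outer mitochondrial membrane, and the released cytochrome c assembles Apaf1 and caspase 9 into the apoptosome, which switches on the downstream steps of cell death. Caspase 2 is activated on a separate platform built from Pidd1 and Cradd, and one of its substrates is Bid. Dgcr8 works with the nuclease Drosha to cut primary microRNA transcripts, so canonical microRNAs are lost when it is deleted. The miR-290 cluster, which includes miR-294, is the main microRNA family of mouse embryonic stem cells, and Mbnl1 and Mbnl2 are RNA-binding regulators of splicing.

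The mature sequence of miR-294 is shown with 2 cluster relatives because the seed, bases 2 to 8, sets which 3′ UTRs a microRNA can pair with. Sequences are from RefSeq (GRCm38.p6), written 5′ to 3′, with the seed in capitals. The miR-294 sequence lies at chr7:3220691-3220712 on the plus strand.
mmu-miR-294-3p: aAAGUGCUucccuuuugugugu
mmu-miR-291a-3p: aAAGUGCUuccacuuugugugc
mmu-miR-295-3p: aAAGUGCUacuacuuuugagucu
The 3 share 1 seed, and 5 mature mouse microRNAs in the RefSeq table carry it.

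The DNA letters of a match to that seed are AGCACTT. They were searched on the transcript strand only, in the longest annotated 3′ UTR of each gene (GENCODE M21 on GRCm38, the same assembly as mm10), and no other motif was searched. Of 21027 genes with a 3′ UTR, 3084 (14.7%) hold a match, and 5 of the 9 genes do. Of these 5, Casp2 and Bcl2 are shown first because their levels in the miR-294 libraries were the lowest of the 4 conditions. The means of Bak1 and Bcl2l1, which hold no match, were also lowest in miR-294. Bmf holds 1 match, not shown, and its mean was highest in miR-294. Bcl2l11 is shown because it holds the most matches of the 9. Each window is 30 bases, 5′ to 3′ on the gene's strand, with the match in capitals.
Casp2: gtgatataacctagaAGCACTTgtctctgc
Bcl2 (first): agccacagttaagggAGCACTTtcatgtag
Bcl2 (last): ggcagatggcacctgAGCACTTcatcctgg
Bcl2l11 (first): cattatgccgagtaaAGCACTTgtcttcca
Bcl2l11 (middle): acagcctggtggaggAGCACTTtctaacct
Bcl2l11 (last): agtctccccgactggAGCACTTtactgtct
Mcl1: ctcttcggacttcagAGCACTTtatgtagt
The Casp2 match is at chr6:42281558-42281564 on the plus strand. The Bcl2 matches are at chr1:106540042-106540048 and chr1:106538836-106538842 on the minus strand. The 3 Bcl2l11 matches start at positions 1251, 1448 and 2122 of a 3′ UTR of 4218 bases. Bcl2l1, Bid, Bak1 and Casp9 hold none in the windows searched. Longer UTRs hold such a match more often. It was found in 20.9% of 1403 UTRs within 10% of the length of that of Casp2, and in 50.3% of 443 UTRs near the length of that of Bcl2. For Bcl2l11 that share was 39.6% of 661.

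The embryonic stem cell label was checked against 10 marker genes, and each was at 1 FPKM (fragments per transcript length, relative to all mapped fragments) or more in every group. Summed FPKM over 12 fibroblast markers lay between 78.1 and 78.5 in WT, 129 and 151 in Dgcr8 KO, 112 in both miR-294 libraries, and 143 and 196 in siMbnl1/2. Fn1, which encodes fibronectin, made up most of each sum, at 67.3 ± 1.04 FPKM in WT, 136 ± 15.1 in Dgcr8 KO, 107 ± 0.238 in miR-294 and 166 ± 37.4 in siMbnl1/2. The sum of the other 11 ran the opposite way against WT, at 10.4 and 11.5 in WT, 3.10 and 3.56 in Dgcr8 KO, 5.29 and 5.44 in miR-294, and 3.69 and 3.77 in siMbnl1/2. Pdgfra, also among the primitive endoderm markers below, was the largest part of the WT sum. Its mean was 6.54 FPKM in WT, 0.314 in Dgcr8 KO, 0.222 in miR-294 and 0.258 in siMbnl1/2. Not every gene was highest in WT: Thy1 was at 2.33 in WT and 3.70 in miR-294, and Pdgfrb at 0.279 in WT and 0.723 in siMbnl1/2. At most 3 of the 12 reached 1 FPKM in any group; Lum was at 0 in WT and Dgcr8 KO, Dcn in WT, and Postn in the other 3 groups. Markers of primitive endoderm, an early lineage that can appear in such cultures, summed to 61.5 and 61.6 FPKM in WT, where 6 of 6 reached 1, and to between 3.03 and 4.23 in the other groups. They set WT apart from the rest. The part of either marker list in any difference was not tested. Dgcr8 itself read 22.4 ± 0.662 FPKM (SD, n = 2) in WT and 8.19 ± 0.432 in Dgcr8 KO. Mbnl2 fell from 26.6 ± 2.79 in Dgcr8 KO to 12.8 ± 2.23 in siMbnl1/2 (limma adjusted p = 0.0191), while Mbnl1, at 8.71 ± 1.00 and 6.80 ± 0.0621, did not pass (limma adjusted p = 0.158). Both Mbnl1 and Mbnl2 were also lower in miR-294 than in Dgcr8 KO, at 5.04 ± 0.172 and 13.8 ± 0.804 FPKM (limma adjusted p = 0.00113 and 8.60e-04). In WT they read 4.96 ± 0.228 and 12.9 ± 0.0643. Levels below those of Dgcr8 KO were thus not particular to siMbnl1/2. In bulk RNA, fewer cells of a type and less RNA per cell cannot be told apart.

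The 9 transcripts span a wide range of abundance. On the FPKM scale, which is per length, Mcl1 was highest with a mean of 161 over the 8 libraries, followed by Bak1 at 44.5, Bcl2l1 at 26.9 and Bcl2l11 at 18.6. Bid at 15.0 and Casp2 at 14.9 came next. The order of these last 3 was not the same in all conditions: Bid was above Casp2 in WT and miR-294 libraries and below it in Dgcr8 KO and siMbnl1/2, and Bid was also above Bcl2l11 in WT. Casp9 at 3.90 and Bmf at 3.07 overlapped across libraries, and Bcl2 was last at 0.500.

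**Figure D1:**
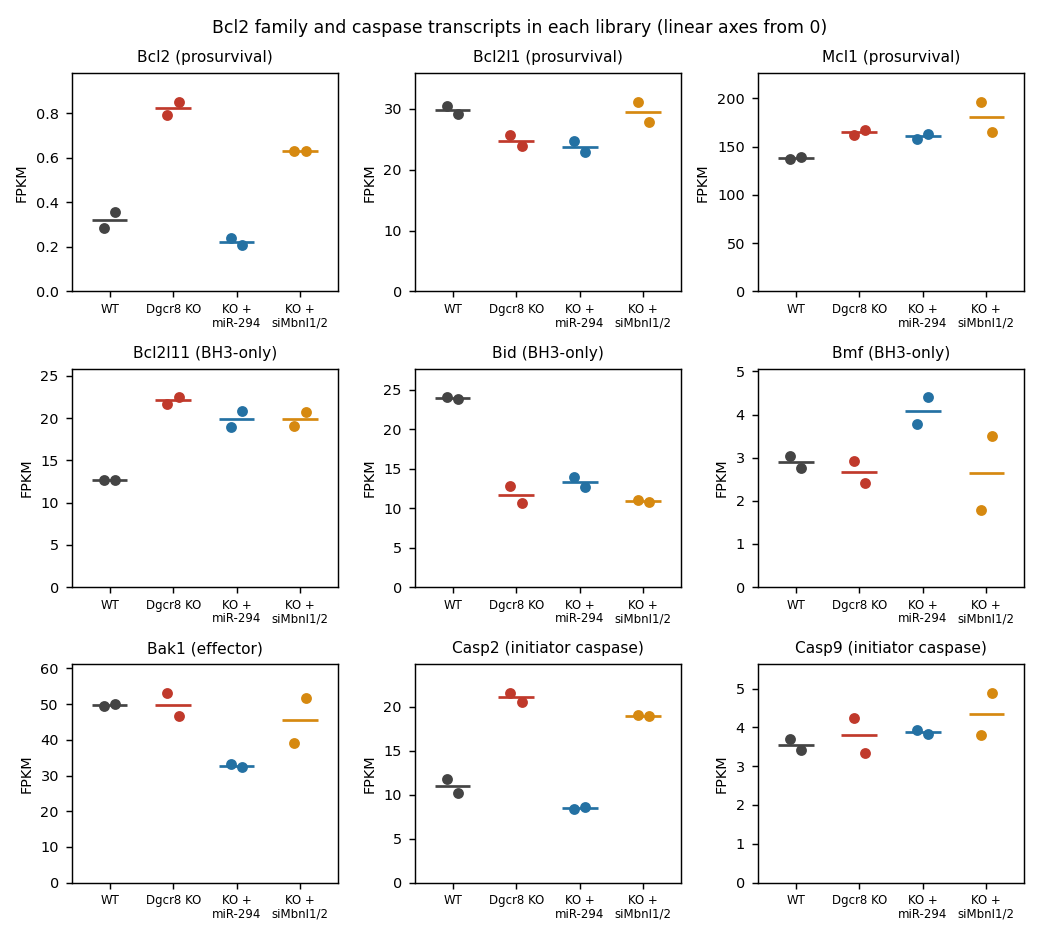
FPKM (y axis, linear from 0) of each of the 9 genes in the 4 conditions (x axis); points are the 2 libraries of a condition and bars their mean. Casp2 was near 21 in Dgcr8 KO and under 9 in miR-294 libraries, and Bid was near 24 in WT and under 15 elsewhere.

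Differences were tested as differences of mean log2(FPKM + 1), with 1 limma model over all 8 libraries and Benjamini-Hochberg adjustment over the 12786 genes with a mean of at least 1 FPKM. A gene was called at an adjusted p under 0.05. The 6 comparisons share libraries, so they are not independent of each other. They also share 1 pooled spread per gene, though the conditions differed in spread. The median SD of log2(FPKM + 1) between replicates was 0.0462 in WT, 0.102 in Dgcr8 KO, 0.0487 in miR-294 and 0.121 in siMbnl1/2.

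Between Dgcr8 KO and WT, 5 of the 8 tested genes were called: Casp2, Bcl2l11 and Mcl1 were higher in Dgcr8 KO, and Bid and Bcl2l1 were lower. Over all genes tested, 59.8% were called in Dgcr8 KO minus WT, 29.6% higher and 30.1% lower, so the count of 5 in 8 is near the background. The median difference was 0.03 over the 8 genes and 0.00 over all genes.

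Giving miR-294 to Dgcr8 KO cells moved 2 of 8, Casp2 and Bak1, and both fell. In that comparison 52.2% of all genes were called, 22.9% higher and 29.2% lower. The median was -0.05 over the 8 genes and -0.06 over all genes. Under quantile normalization 5 were called, 2 higher (Bid and Bmf) and 3 lower (Mcl1 in addition).

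In siMbnl1/2 minus Dgcr8 KO, limma called none of the 8, against 1.11% of all genes (0.868% higher, 0.242% lower). Before adjustment 1 of them, Bcl2l1, was under 0.05 (limma adjusted p = 0.184). Each of the 17 alternative settings also gave 0. The 95% intervals leave room for moderate changes. For Casp2 the interval ran from -0.35 to 0.06 on the log2 scale and for Bmf from -0.54 to 0.45.

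Between the treatments, in siMbnl1/2 minus miR-294, 3 of 8 were called and all were higher (54.0% of all genes called, 33.0% higher and 21.0% lower). They were Casp2, Bak1 and Bcl2l1. That one-sided direction depended on scaling. Median-of-ratios scaling called 2 higher and 2 lower, losing Bcl2l1, and quantile normalization called 4 higher and 2 lower; the lower genes were Bid and Bmf in both.

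Against WT, the miR-294 libraries had 5 of 8 called, 1 higher and 4 lower, where 26.5% of all genes were called (11.8% higher, 14.7% lower). siMbnl1/2 minus WT had 4 of 8, 3 higher and 1 lower, where 60.5% of all genes were called (32.8% higher, 27.7% lower).

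**Figure D2:**
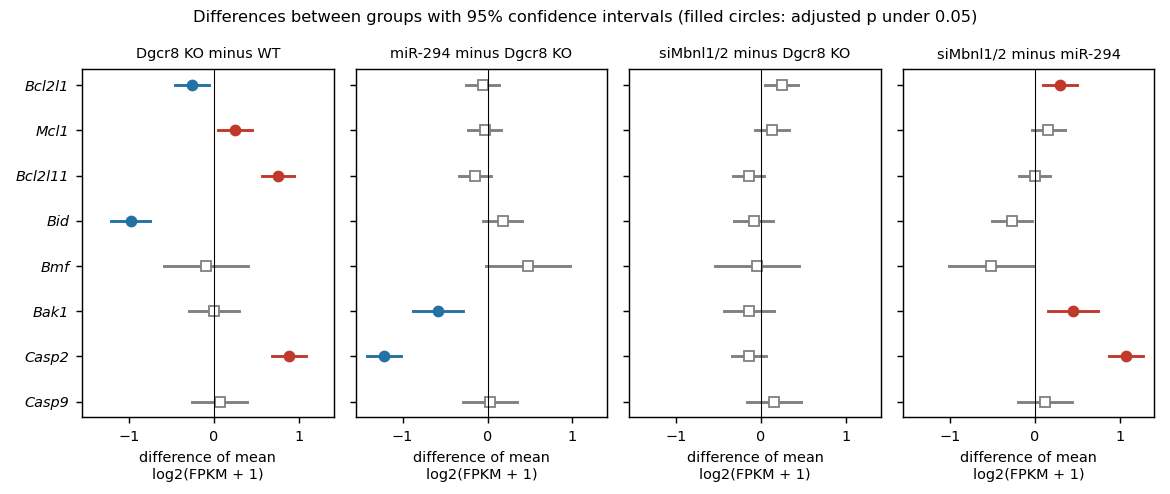
Differences of mean log2(FPKM + 1) between groups (x axis) for the 8 tested genes, with 95% confidence intervals; filled circles passed an adjusted p of 0.05 and open squares did not. Casp2 and Bak1 are the filled points in miR-294 minus Dgcr8 KO, and no point is filled in siMbnl1/2 minus Dgcr8 KO.

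Among the prosurvival genes, Mcl1, a short-lived protein on which many stem cells depend for survival, was the most abundant transcript. It read 137 and 139 FPKM in WT, 162 and 167 in Dgcr8 KO, 158 and 164 in miR-294, and 197 and 165 in siMbnl1/2. The WT libraries were the lowest, and the other 3 conditions overlapped in part. Mcl1 was higher in Dgcr8 KO than in WT by 0.25 ± 0.08 (SE) on the log2 scale (limma adjusted p = 0.0353). That call is fragile. It was lost without WT replicate 1 or 2 (limma adjusted p = 0.139 and 0.115), Dgcr8 KO replicate 1 or 2 (0.0728 and 0.116), or either miR-294 replicate (0.0628 each). In all, it was lost in 10 of 17 alternatives. These include median-of-ratios scaling (limma adjusted p = 0.0519), no filter on low values (0.0745) and variance with neither trend nor robust (0.0605). Quantile normalization instead raised the difference to 0.59 and kept the call. Mcl1 was also higher in siMbnl1/2 than in WT, by 0.38 ± 0.08 (limma adjusted p = 0.00614), and this call held in all 17 alternatives.

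Bcl2l1, which encodes Bcl-xL, ran the other way against WT. Its levels were 30.4 and 29.1 FPKM in WT, 25.6 and 23.8 in Dgcr8 KO, 24.6 and 22.9 in miR-294, and 31.1 and 27.8 in siMbnl1/2. The Dgcr8 KO and miR-294 libraries overlapped each other and lay below all WT and siMbnl1/2 libraries, which overlapped each other in turn. In Dgcr8 KO its mean fell to 0.83 times the WT mean, a difference of -0.26 ± 0.08 (limma adjusted p = 0.0299). It missed the threshold under quantile normalization (limma adjusted p = 0.0967), with no filter (0.0603), and without WT replicate 1 (0.157), WT replicate 2 (0.0835), Dgcr8 KO replicate 2 (0.123) or miR-294 replicate 1 (0.0501). Bcl2l1 was 1.24 times higher in siMbnl1/2 than in miR-294 libraries (0.30 ± 0.08, limma adjusted p = 0.0188). That call was lost without miR-294 replicate 2 (limma adjusted p = 0.126) or siMbnl1/2 replicate 1 (0.0671). It was also lost in a fit of those 4 libraries alone (0.0504) and under median-of-ratios scaling, where the difference was 0.19 (0.101). miR-294 libraries were below WT by 0.31 ± 0.08 (limma adjusted p = 0.0306), and leaving out any 1 of those 4 libraries lost this call (limma adjusted p from 0.0923 to 0.185).

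Bcl2, the founding prosurvival gene of the family, was low in every library. Levels were 0.285 and 0.357 FPKM in WT, 0.793 and 0.853 in Dgcr8 KO, 0.239 and 0.208 in miR-294, and 0.632 and 0.630 in siMbnl1/2. The 4 conditions did not overlap, in the order Dgcr8 KO, siMbnl1/2, WT and miR-294. Bcl2 entered a test only in the alternative without the filter on low values. There it was 2.56 times higher in Dgcr8 KO than in WT (0.46 ± 0.08 on the log2(FPKM + 1) scale, limma adjusted p = 0.00523). It was 3.68-fold lower in miR-294 than in Dgcr8 KO (limma adjusted p = 0.00325), and 2.82 times higher in siMbnl1/2 than in miR-294 (limma adjusted p = 0.0105). siMbnl1/2 minus Dgcr8 KO did not pass (limma adjusted p = 0.456), nor did miR-294 minus WT (0.444). With a pseudocount of 0.1 the difference after miR-294 grew from -0.57 to -1.51, since a pseudocount of 1 is larger than these levels.

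Among the BH3-only genes, Bcl2l11, which encodes Bim, a broad binder of prosurvival proteins, was higher in Dgcr8 KO than in WT. It read 12.7 FPKM in both WT libraries, 21.7 and 22.5 in Dgcr8 KO, 19.0 and 20.8 in miR-294, and 19.1 and 20.7 in siMbnl1/2. All 6 libraries without Dgcr8 lay above both WT libraries, and the miR-294 and siMbnl1/2 libraries interleaved. The rise in Dgcr8 KO was 1.74-fold (0.75 ± 0.08, limma adjusted p = 1.50e-04). With miR-294 the level was 0.90 times that in Dgcr8 KO, a difference of -0.15 with a 95% interval from -0.33 to 0.04 that did not pass (limma adjusted p = 0.155). Bcl2l11 was still 1.57 times higher in miR-294 libraries than in WT (limma adjusted p = 0.00182).

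Bid, whose product links caspase cleavage to the mitochondrial step, moved the opposite way. Levels were 24.1 and 23.8 FPKM in WT, 12.8 and 10.6 in Dgcr8 KO, 14.0 and 12.6 in miR-294, and 11.1 and 10.8 in siMbnl1/2. WT was clearly the highest, and the other 3 conditions lay between 10.6 and 14.0. Bid was 2.05-fold lower in Dgcr8 KO than in WT (-0.98 ± 0.10, limma adjusted p = 1.34e-04). Bid also stayed below WT with miR-294 (-0.80, limma adjusted p = 0.00155) and with siMbnl1/2 (-1.07, limma adjusted p = 8.66e-05). These 3 calls held in all 17 alternatives. The direct comparison of siMbnl1/2 with miR-294 was -0.26 and did not pass (limma adjusted p = 0.0561). It passed in 4 of 17 alternatives. The difference was -0.37 under median-of-ratios scaling (limma adjusted p = 0.0113) and -0.48 under quantile normalization (0.00422), and the call also came without Dgcr8 KO replicate 1 or 2 (0.0265 and 0.0263).

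Bmf, a BH3-only gene whose product binds the dynein light chain at the cytoskeleton, was the noisiest of the 9. It read 3.03 and 2.76 FPKM in WT, 2.92 and 2.42 in Dgcr8 KO, 3.77 and 4.40 in miR-294, and 1.80 and 3.49 in siMbnl1/2. Both miR-294 libraries were above all others, but no comparison passed. In miR-294 minus Dgcr8 KO the difference was 0.47 ± 0.21 (limma adjusted p = 0.0972). Without siMbnl1/2 replicate 1 or 2, which were far apart for this gene, it passed (limma adjusted p = 0.011 and 0.0112).

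The effector Bak1, one of the pore formers of the outer mitochondrial membrane, fell after miR-294 without having changed detectably in the knockout. Levels were 49.5 and 50.1 FPKM in WT, 53.2 and 46.6 in Dgcr8 KO, 33.2 and 32.4 in miR-294, and 39.2 and 51.8 in siMbnl1/2. Both miR-294 libraries were below all others, and the other 3 conditions overlapped. The fall from Dgcr8 KO was 1.52-fold (-0.59 ± 0.13, limma adjusted p = 0.00645) and held in all 17 alternatives. Dgcr8 KO minus WT was 0.00 with a 95% interval from -0.30 to 0.30. miR-294 libraries were also below WT (-0.59, limma adjusted p = 0.0139). This call was lost when any 1 of those 4 libraries was left out (limma adjusted p from 0.075 to 0.0815), although the difference stayed between -0.60 and -0.57. In siMbnl1/2 minus miR-294 Bak1 was higher by 0.45 ± 0.13 (limma adjusted p = 0.0197). Without siMbnl1/2 replicate 2 that difference was 0.25 (limma adjusted p = 0.0566), and without miR-294 replicate 1 or 2 the call was lost as well (0.0731 and 0.0893).

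Casp2, the initiator caspase of the Pidd1 platform, had the largest difference in log2(FPKM + 1) of the 8 tested genes in any of the 6 comparisons. It read 11.9 and 10.2 FPKM in WT, 21.6 and 20.6 in Dgcr8 KO, 8.38 and 8.66 in miR-294, and 19.1 and 18.9 in siMbnl1/2. The 4 conditions did not overlap, in the same order as for Bcl2. Casp2 was 1.91 times higher in Dgcr8 KO than in WT (0.88 ± 0.09, limma adjusted p = 1.15e-04). It fell 2.48-fold when miR-294 was added (-1.22 ± 0.09, limma adjusted p = 7.10e-05). It was 2.23 times higher in siMbnl1/2 than in miR-294 libraries (limma adjusted p = 8.42e-05), and 1.72 times higher in siMbnl1/2 than in WT (limma adjusted p = 2.56e-04). These 4 calls held in all 17 alternatives. The miR-294 libraries were below WT by 0.34 ± 0.09 (limma adjusted p = 0.0273). That call was lost without WT replicate 1 (limma adjusted p = 0.207), miR-294 replicate 1 (0.155) or miR-294 replicate 2 (0.11). GENCODE M21 lists 10 transcripts for Casp2, of which 1 is protein-coding, and the gene-level FPKM does not separate them.

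Casp9, the caspase of the apoptosome, was not called in any comparison. Its levels were 3.70 and 3.41 FPKM in WT, 4.25 and 3.35 in Dgcr8 KO, 3.92 and 3.84 in miR-294, and 3.79 and 4.89 in siMbnl1/2. Dgcr8 KO minus WT was 0.07 (95% interval from -0.25 to 0.39, limma adjusted p = 0.689). Over the 6 comparisons the largest difference was 0.22, in siMbnl1/2 minus WT (limma adjusted p = 0.199).

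Seed matches and changes after miR-294 were set side by side. Casp2, with 1 match, had the largest fall of the tested genes. Bak1, with none, also fell. Bcl2l11, with 3, did not pass, nor did Mcl1 or Bmf with 1 each. Among all tested genes with an annotated 3′ UTR, 2023 with a match had a median of -0.24 and 45.2% called lower, and 9489 without one had a median of -0.03 and 27.9% called lower. Those with a match also had longer UTRs (median 2468 against 934 bases), and the part of length was not tested.

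**Figure D3:**
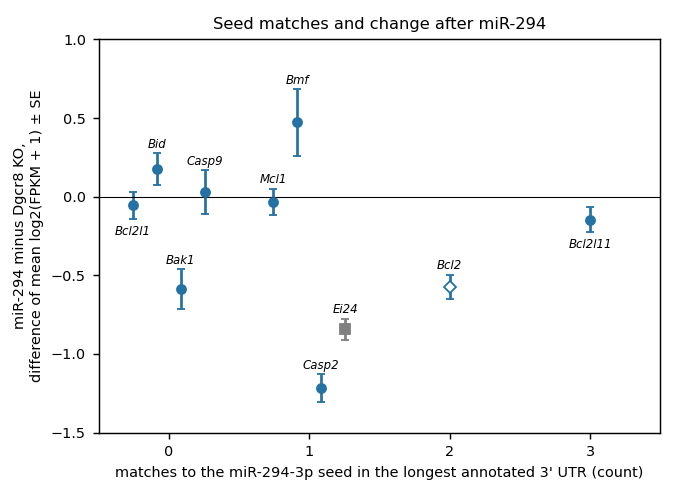
Difference of mean log2(FPKM + 1) ± SE in miR-294 minus Dgcr8 KO (y axis) against the number of matches to the miR-294 seed in the longest annotated 3′ UTR (x axis; points are spread sideways around 0 and 1). The open diamond is Bcl2, from the fit without the filter. The grey square is Ei24, the only one of the other pathway genes drawn. It was picked for its match and levels, so it cannot show how the axes relate. Casp2 with 1 match is lowest at -1.22, and Bcl2l11 with 3 matches is at -0.15.

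Ratios within a library do not depend on a scaling factor of that library, and they are given as a description. Casp2 over Casp9 was 3.20 and 2.997 in WT, 5.09 and 6.15 in Dgcr8 KO, 2.14 and 2.26 in miR-294, and 5.04 and 3.87 in siMbnl1/2. Every library was above 1, and the miR-294 libraries were the lowest. Bcl2l11 over Bid was 0.526 and 0.532 in WT, 1.70 and 2.12 in Dgcr8 KO, 1.35 and 1.64 in miR-294, and 1.73 and 1.92 in siMbnl1/2. Bid was thus the more abundant of this pair in WT, and Bcl2l11 in all 6 libraries without Dgcr8. Sums were also formed of the prosurvival genes Bcl2, Bcl2l1 and Mcl1 and of the BH3-only genes Bcl2l11, Bid and Bmf. The first sum over the second gave 4.23 and 4.29 in WT, 5.05 and 5.40 in Dgcr8 KO, 4.98 and 4.94 in miR-294, and 7.15 and 5.54 in siMbnl1/2. Mcl1 made up 81.7% to 87.6% of the prosurvival sum. The BH3-only sum was 39.8 and 39.3 FPKM in WT and 31.9 and 34.9 in siMbnl1/2, so both terms of that ratio differed between these conditions. Other BH3-only genes are outside the sum, so the ratio does not describe the whole family. Mean Pmaip1 was 28.5 FPKM in WT, 50.4 in Dgcr8 KO, 28.3 in miR-294 and 78.2 in siMbnl1/2. Mean Bbc3 was 16.0, 15.2, 14.7 and 18.5 in the same order. The siMbnl1/2 libraries were far apart for Pmaip1, at 57.8 and 98.6 FPKM. Its difference in siMbnl1/2 minus Dgcr8 KO did not pass (limma adjusted p = 0.221).

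**Figure D4:**
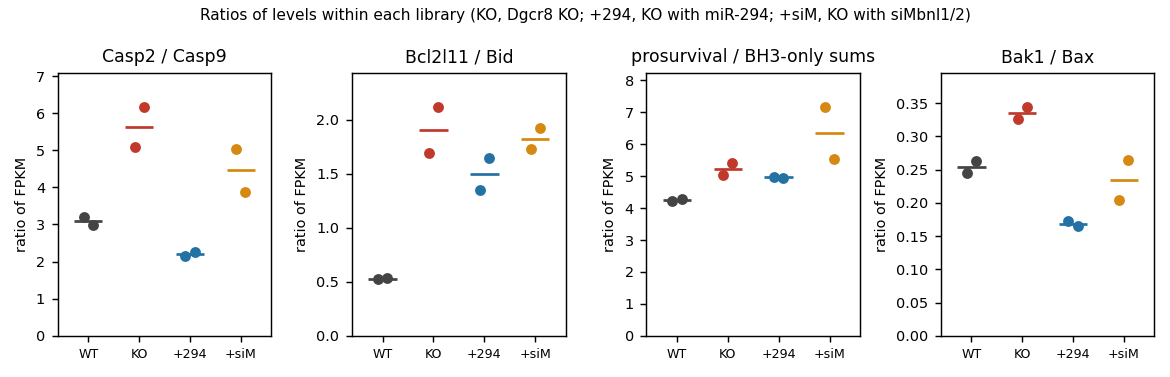
Ratios of FPKM within each library (y axes, linear from 0) in the 4 conditions (x axis); points are libraries and bars their mean. Bcl2l11 over Bid is about 0.53 in WT and above 1.3 in all other libraries, and Bak1 over Bax is lowest in the miR-294 libraries.

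Of 56 other genes of the pathway in 9 lists, 45 were tested. In Dgcr8 KO minus WT 17 rose and 11 fell, which is 62.2% against 59.8% of all genes. In miR-294 minus Dgcr8 KO 8 rose and 19 fell, 60.0% against 52.2%. Fewer of them were called when either miR-294 library was left out, and the same held over all genes tested. In siMbnl1/2 minus Dgcr8 KO 1 rose and none fell, 2.22% against 1.11% of all genes. Without siMbnl1/2 replicate 2 that count was 5, and 650 of all 12786 genes were called.

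Of 5 prosurvival relatives only Bcl2l2, which encodes Bcl-w, was tested. It was lower after miR-294 by 0.32 ± 0.11 (limma adjusted p = 0.0382), a call lost in 10 of 17 alternatives. Those include leaving out either WT library (limma adjusted p = 0.0585 and 0.0589), either miR-294 library (0.0536 and 0.221) or Dgcr8 KO replicate 1 (0.163). Of 6 other Bcl2-like genes, 4 rose in Dgcr8 KO and none fell, where 29.6% of all genes rose and 30.1% fell. Bcl2l15 went from 0.282 ± 0.0641 FPKM (WT) to 4.19 ± 0.137 without Dgcr8 (2.02, limma adjusted p = 7.87e-05). Bcl2l12 rose by 0.49 in Dgcr8 KO and was the 1 gene of the list to fall after miR-294, by 0.66 (limma adjusted p = 0.0297 and 0.0107). Its rise was lost without WT replicate 1 or 2 or Dgcr8 KO replicate 1 (limma adjusted p = 0.0601, 0.143 and 0.167), and its fall without Dgcr8 KO replicate 1 or miR-294 replicate 2 (0.0562 and 0.0701).

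The effector relatives Bax and Bok moved opposite to Bak1 after miR-294. Both were called lower in Dgcr8 KO, where 30.1% of all genes were, and higher after miR-294, where 22.9% of all genes were. Bax, the other main pore former, was at 196 ± 8.26 FPKM in WT, 149 ± 19.2 in Dgcr8 KO, 194.5 ± 2.74 in miR-294 and 194 ± 3.21 in siMbnl1/2. It fell in Dgcr8 KO (-0.40, limma adjusted p = 0.00566) and rose after miR-294 (0.39, limma adjusted p = 0.00818). Both Bax calls were lost under quantile normalization (limma adjusted p = 0.438 and 0.242), and the second was lost without miR-294 replicate 2 (limma adjusted p = 0.0539). Bok fell by 1.14 and then rose by 0.58 (limma adjusted p = 1.72e-04 and 0.00594). Bak1 over Bax was 0.245 and 0.263 in WT, 0.327 and 0.344 in Dgcr8 KO, 0.172 and 0.165 in miR-294, and 0.205 and 0.264 in siMbnl1/2. The 2 miR-294 libraries were the lowest and the 2 Dgcr8 KO libraries the highest.

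Among 5 BH3-only relatives, Hrk, which encodes Harakiri, fell by 0.80 in Dgcr8 KO and rose by 1.11 after miR-294 (limma adjusted p = 4.01e-04 and 1.61e-04), from levels of 1.74 FPKM in WT, 0.5695 in Dgcr8 KO and 2.40 with miR-294. Pmaip1, which encodes Noxa, a selective partner of Mcl-1, rose by 0.79 and then fell by 0.81 (limma adjusted p = 0.0169 and 0.0184). The first Pmaip1 call was lost without WT replicate 1 or 2 or Dgcr8 KO replicate 2 (limma adjusted p = 0.077, 0.0572 and 0.102). The second was lost without Dgcr8 KO replicate 2 or miR-294 replicate 1 or 2 (limma adjusted p = 0.106, 0.0924 and 0.0554). The other 3 were not called in either comparison, so 2 of 5 were called in each, against 59.8% and 52.2% of all genes.

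Among 9 tested genes of the apoptosome and its inhibitors, 4 rose and 3 fell in Dgcr8 KO, and 3 rose and 5 fell after miR-294. Of all genes, 59.8% and 52.2% were called in these comparisons. Birc3, an inhibitor of apoptosis protein, rose by 1.66 and then fell by 0.99 (limma adjusted p = 2.83e-05 and 4.14e-04). Birc5, which encodes survivin, a protein that also works in cell division, fell by 0.66 in Dgcr8 KO (limma adjusted p = 8.18e-05). Apaf1, the scaffold of the apoptosome, went from 11.8 FPKM in Dgcr8 KO to 7.08 with miR-294 (-0.67, limma adjusted p = 8.63e-04).

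Of 6 tested death receptor genes, 3 rose and none fell in Dgcr8 KO, where 29.6% of all genes rose and 30.1% fell. After miR-294 3 fell and none rose, where 29.2% of all genes fell and 22.9% rose. Counted in either direction, 50% were called in each comparison, near the 59.8% and 52.2% of all genes. The receptor Tnfrsf10b rose by 0.74 and fell by 0.81 (limma adjusted p = 2.97e-04 and 3.30e-04). Ripk1, a kinase downstream of these receptors, rose by 0.45 and fell by 0.43 (limma adjusted p = 0.015 and 0.0218). Its rise missed the threshold once WT replicate 1 or Dgcr8 KO replicate 1 was omitted (limma adjusted p = 0.0935 and 0.0688). Its fall was lost without either Dgcr8 KO library (0.0907 and 0.0566) or miR-294 replicate 2 (0.13). Both genes of the Casp2 platform fell in Dgcr8 KO, Pidd1 by 0.74 (limma adjusted p = 0.00176) and Cradd by 0.50 (limma adjusted p = 0.0113), where Casp2 itself rose. Of all genes, 30.1% were called lower there. The Cradd call ended when WT replicate 1 or Dgcr8 KO replicate 1 was left out (limma adjusted p = 0.0689 and 0.0545). After miR-294 Cradd rose by 0.37 (limma adjusted p = 0.0418), and leaving out any 1 library of WT, Dgcr8 KO or miR-294 lost this (limma adjusted p from 0.0707 to 0.188).

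Among the upstream regulators, Ei24, a p53-induced gene, is shown for its seed match and its levels. Since it was picked on both, it cannot show how matches relate to levels. Matches in the other pathway genes are not given.
Ei24: tccagctgtttttttAGCACTTgccagctc
Ei24 was at 62.9 ± 0.126 FPKM in WT, 112 ± 7.57 in Dgcr8 KO, 61.8 ± 1.75 in miR-294 and 126 ± 3.99 in siMbnl1/2. It rose by 0.82 in Dgcr8 KO and fell by 0.84 after miR-294 (limma adjusted p = 5.49e-05 and 9.91e-05). Mdm4, a p53 inhibitor related to Mdm2, fell by 0.49 after miR-294 (limma adjusted p = 3.63e-04). Mdm2, the ligase that degrades p53, fell by 0.77 in Dgcr8 KO (limma adjusted p = 1.72e-04). It was the 1 other pathway gene called in siMbnl1/2 minus Dgcr8 KO (0.54, limma adjusted p = 0.0378), a call lost in 13 of 17 alternatives. Those include leaving out any library other than siMbnl1/2 replicate 2, with limma adjusted p from 0.053 to 0.154.

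**Figure D5:**
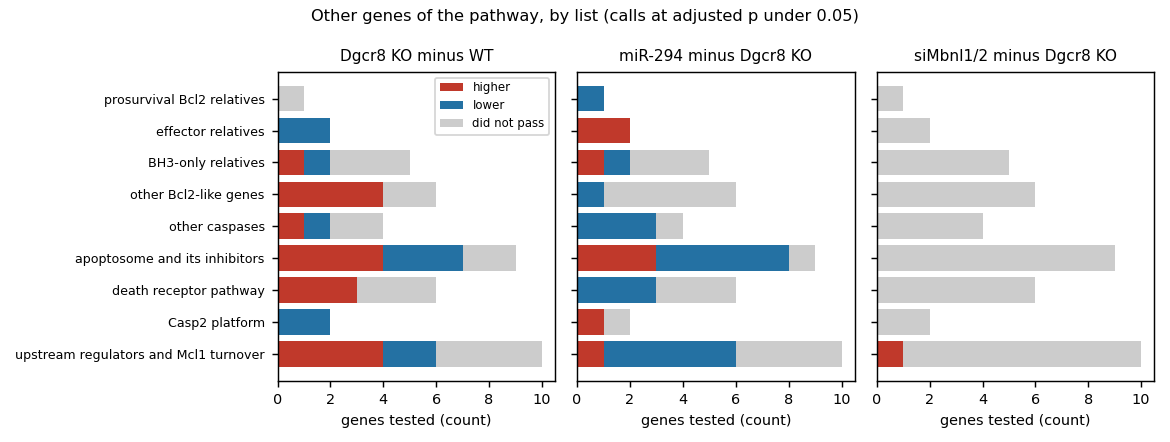
Number of tested genes (x axis) called higher, called lower or not called at an adjusted p of 0.05 in each of 9 lists of other pathway genes (y axis), in 3 comparisons. In miR-294 minus Dgcr8 KO 19 of 45 genes were lower and 8 higher, and in siMbnl1/2 minus Dgcr8 KO 1 gene was called.

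The genes most alike in pattern were sought among 11383 named tested genes by the root mean square difference of centred log2(FPKM + 1) over the 8 libraries. For Casp2, whose own SD was 0.54, they were Stk17b (0.0712) and Snx25 (0.0729). For Bak1 (SD 0.28) they were Mgat1 (0.0633) and Wsb2 (0.0738). For Bcl2l11 (SD 0.31) Diaph2 (0.0584) and Smoc1 (0.0598) were closest, and for Bid (SD 0.46) Zswim4 (0.0561) and Cc2d2a (0.0696). Bcl2l1 was closest to Mrps6 and Ttc13, and Mcl1 to Tbc1d15 and Zfp874b. Bmf was closest to Dmrt1 and Tmem265, and Casp9 to Baz2a and Gsk3a.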

How the data were processed

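The authors deposited FPKM per gene for 8 libraries; per the submitters' processing notes reads were processed with STAR 2.5.0 and Cufflinks 2.2.1 on mm10, and the annotation release is not given in the sources used here. The labels call the RNA polyA and the series' design calls it total; libraries kept strand by a dUTP protocol, per the labels' protocols. FPKM sums were 473746 to 571508. Counts cannot be recovered, so depth is unknown. An FPKM value is a share of its library, so gains elsewhere lower it.

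Genes with a mean of at least 1 FPKM were tested as log2(FPKM + 1) with limma 3.58.1 (R 4.3.3, statmod 1.5.0, data.table package version 1.17.8), with 4 group means, trended and robust variance, two-sided tests and Benjamini-Hochberg adjustment. This scale understates fold changes of low genes. Folds are ratios of mean FPKM. The model was tested on simulated data. The 9 genes were named in every comparison, and of each other list the 2 called genes with the largest difference in each comparison with Dgcr8 KO as a term. The 9 genes and all lists were chosen with earlier results of these data known. Some results that the rule names are not reported here.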

Additional observations from a re-analysis of the deposited data

How the results depend on the processing

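Of 816 values of the 8 tested genes under 17 alternatives, 749 stayed on their side of the threshold, 40 lost a call, 27 gained one and none of the called values reversed. The sign differed in 26 of the 749, none of them called. Quantile normalization gave 5 of the 8 called in miR-294 minus Dgcr8 KO (2 as reported) and 6 in siMbnl1/2 minus miR-294 (3 as reported). A fit of only the libraries of that comparison gave 1 in siMbnl1/2 minus miR-294, and no filter on low values gave 3 in miR-294 minus WT (5 as reported). Leaving out 1 library at a time gave 3 to 5 in Dgcr8 KO minus WT, 2 to 7 in miR-294 minus WT and 1 to 4 in siMbnl1/2 minus miR-294. The labels do not say whether replicate numbers pair the libraries. Correlations of replicate deviations between conditions ran from -0.0495 to 0.191, which cannot settle it. A replicate block gave 4 called in Dgcr8 KO minus WT, the lost call being Mcl1 (limma adjusted p = 0.0565). It gave 2 in miR-294 minus Dgcr8 KO, 0 in siMbnl1/2 minus Dgcr8 KO and 3 in siMbnl1/2 minus miR-294. It gave 5 in miR-294 minus WT and 4 in siMbnl1/2 minus WT. The causes were not tested.

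Over all genes, miR-294 minus WT had 3390 calls, 6311 when fitted alone, 6669 with libraries weighted by group spread, and 1242 to 4578 with 1 library left out. siMbnl1/2 minus Dgcr8 KO had 142, but 4 with those libraries alone, 8 weighted, 33 with the replicate block, 61 with no filter, 227 with at least 1 FPKM in every library, and 15 to 650 with 1 library left out. Median-of-ratios scaling and quantile normalization changed the share of calls that were higher from 78.2% to 56.4% and 57.1% in siMbnl1/2 minus Dgcr8 KO, from 61.1% to 50.1% and 48.3% in siMbnl1/2 minus miR-294, and from 44.5% to 56.8% and 52.5% in miR-294 minus WT. In siMbnl1/2 minus miR-294 the median of all genes, 0.10 as deposited, became 0.00 and -0.02. With 2 libraries per group no library can be tested as an outlier, and low genes such as Bcl2 depend most on the pseudocount.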
